A study of Mus musculus with 8 samples.

Results

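The miRNAs described here are those encoded inside the mouse Hox clusters, namely miR-10, miR-196 and miR-615. They were chosen by a rule on names that used no values, though with earlier results of these data known. The rule took the assays whose name begins with miR-10a, miR-10b, miR-196 or miR-615 and carries no star, the mark of the less abundant strand of a hairpin in older catalogues. This gave 5 of 517 mouse miRNA assays, for miR-10a, miR-10b, miR-196b, miR-615-3p and miR-615-5p. An unstarred miR-196a assay was not among the rows analysed here.

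The study compared early atherosclerotic plaque with vessel wall of normal appearance, 4 biological replicates each, by real-time PCR after laser capture microdissection. All 8 samples came from female apoe-/- mice, which lack apolipoprotein E in every cell. They had been fed a high fat diet for 3 months, and the labelled age of 6 to 8 weeks is given in the design text for the mice put on the diet. Thus the undiseased wall carried the same gene loss and diet as the plaque. The labels place the plaque in the aortic root and give the undiseased tissue only as artery, while the design text names aortic roots and carotid arteries. Vessel site and disease therefore cannot be told apart, and the labels do not tie the samples to individual mice. As the samples are mixtures, fewer cells of a type and less RNA per cell cannot be told apart either.

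Hox genes specify position along the body axis, and vascular cells keep part of this embryonic Hox pattern in adult vessels. The miRNAs embedded in the clusters are often transcribed with the neighbouring Hox genes and repress others, as miR-196 does by directing cleavage of Hoxb8 mRNA in mouse embryos. In arteries, miR-10a restrains NF-κB signalling in endothelium and was found at a low level at lesion-prone aortic sites in swine, and miR-10b represses the cholesterol exporters ABCA1 and ABCG1 in mouse macrophages.

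The mature sequences show which of these miRNAs can share targets, since target choice rests mainly on the seed, bases 2 to 8, set here in capitals. All 5 assays matched a RefSeq entry by name, taking the older unstarred names as the 5p strand (build GRCm38.p6, 5′ to 3′).
miR-10a: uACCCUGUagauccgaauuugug
miR-10b: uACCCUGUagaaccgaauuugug
miR-196b: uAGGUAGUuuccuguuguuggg
miR-615-3p: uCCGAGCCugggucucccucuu
miR-615-5p: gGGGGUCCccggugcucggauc
miR-10a and miR-10b have the same seed and differ by the single substitution U12A, counted from 1 at the 5′ end with the base of miR-10a first. No other mature mouse miRNA in the RefSeq table had the seed of miR-10. miR-196b shared its seed with miR-196a alone, and each strand of miR-615 had a seed of its own.

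Each hairpin lies among Hox genes on a different chromosome. Mature miR-10a stands at chr11:96317186-96317208 on the plus strand, within the span annotated to Hoxb3 and beside Hoxb4. Mature miR-10b stands at chr2:74726074-74726096, plus strand, within the spans of Hoxd3 and Hoxd4. miR-196b stands at chr6:52230129-52230150 on the minus strand, between Hoxa9 and Hoxa10. miR-615-5p and miR-615-3p stand at chr15:103014926-103014947 and chr15:103014969-103014990, plus strand, within the span of Hoxc5. The gene table gave spans without exons, so exonic and intronic positions were not assigned. The hairpin of miR-10a, with the miR-10a strand first and the strand of the starred assay second, both in capitals, reads as follows.
Mir10a hairpin: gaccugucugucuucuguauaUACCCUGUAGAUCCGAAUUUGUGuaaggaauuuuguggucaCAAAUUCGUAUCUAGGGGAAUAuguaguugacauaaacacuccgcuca

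miR-10a was the only Hox cluster miRNA measured in every sample. The deposited values were raw threshold cycles (Ct), where a higher Ct means less RNA, and a Ct under 35 was counted as detected. miR-10b and miR-196b were each detected in 1 of 8 samples, and both strands of miR-615 in 0 of 8. All 30 undetected wells of these 5 assays held exactly 40, the value given where nothing amplified, and none lay between 35 and 40. Over all 517 miRNA assays, 24.0% were detected in 8 of 8 samples, 9.67% in 1 of 8 and 34.8% in 0 of 8, so 1, 2 and 2 of 5 in these classes come from too few assays to set them apart.

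**Figure D1:**
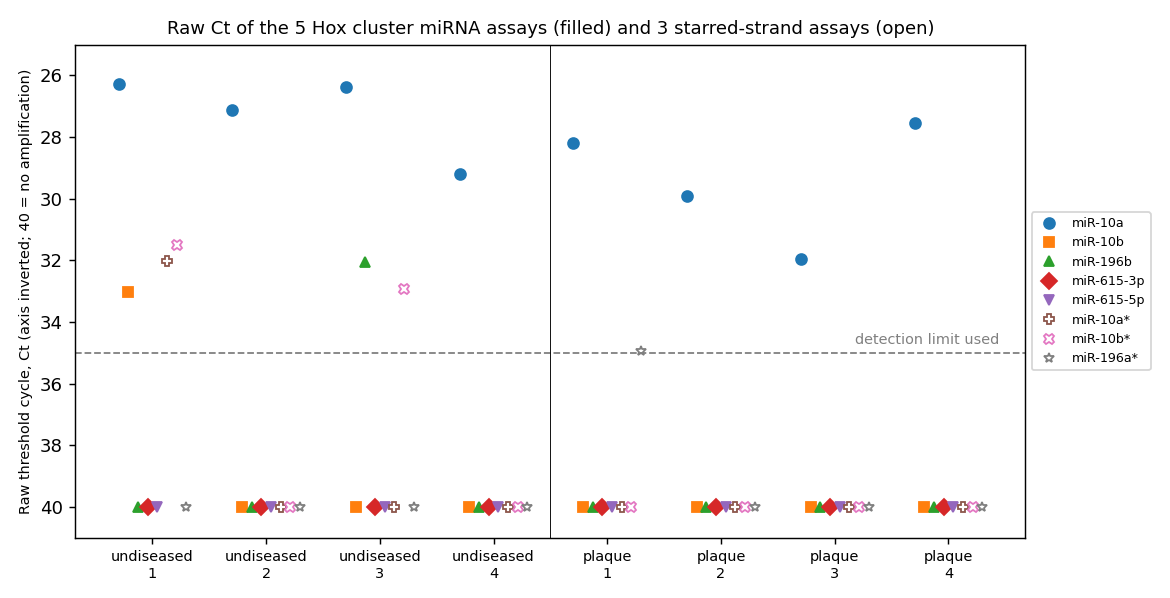
Raw Ct (inverted axis, 40 meaning no amplification) of the 5 Hox cluster assays (filled symbols) and of 3 starred-strand assays (open symbols) in each sample. miR-10a lies between 26.3 and 31.97 in all 8 samples, while nearly all other wells are at 40 and the exceptions are in undiseased artery 1, undiseased artery 3 and plaque 1.

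From sample 1 to sample 4, undiseased artery gave miR-10a at raw Ct values of 26.3, 27.1, 26.4 and 29.2. Plaque gave 28.2, 29.9, 31.97 and 27.5 in the same numbering. Plaque 3 was the latest to amplify and undiseased artery 4 the latest of its group, and the groups overlapped. Undiseased artery averaged 27.2 ± 1.36 cycles and plaque 29.4 ± 1.99 (SD, n = 4 each), 2.15 cycles later in plaque (exact permutation test, two-sided, p = 0.114).

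Plaque samples amplified later on average, without passing an exact test. Over the 124 miRNAs that all 8 samples detected, the average Ct per sample ran from 24.7 to 26.6 in undiseased artery and from 26.3 to 29.9 in plaque, a difference of 2.70 cycles (exact permutation test, p = 0.0571). Undiseased samples detected 227 to 288 miRNAs each and plaque samples 148 to 240. Each sample was therefore centred by subtracting its average Ct over those 124 miRNAs. The centred level is the negative of that value, on a log2 scale if amplification is fully efficient, so that 1 unit is a 2-fold difference. Efficiencies were not measured and may differ between assays. Different assays were therefore set against each other only as a Ct difference within a sample, compared between the groups. That comparison still takes equal efficiency, as plaque amplified later.

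Relative to this mean, miR-10a did not differ detectably between plaque and undiseased artery. Centred levels in undiseased artery, from sample 1 to 4, were -1.24, -2.13, -1.69 and -2.56. Those in plaque were -1.06, -1.08, -2.04 and -1.27. Plaque 1 and 2 were the highest of all 8 and undiseased artery 4 the lowest, but plaque 3 lay within the undiseased range and undiseased artery 1 above 2 of the plaque samples. The group means were -1.91 ± 0.567 and -1.36 ± 0.462 (SD, n = 4 each). The log2 difference, plaque minus undiseased, was 0.54 (SE 0.470, limma adjusted p = 0.401 over 172 tested miRNAs; exact permutation test, two-sided, p = 0.200). This is a 1.46-fold difference with a 95% interval from 0.712-fold to 2.98-fold, so a rise of almost 3-fold or a modest fall remained within the error.

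**Figure D2:**
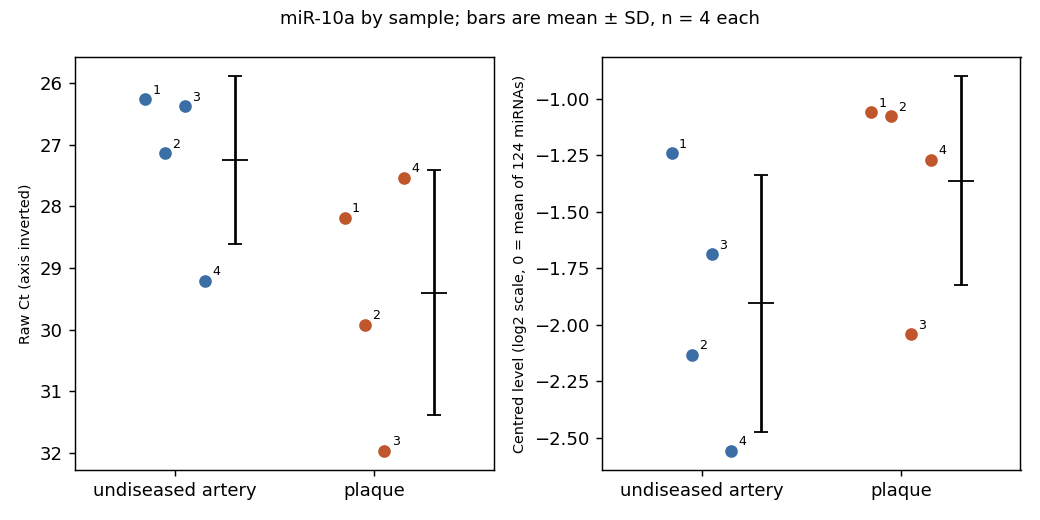
miR-10a in each sample as raw Ct (left, inverted axis) and as centred level (right, log2 scale), with sample numbers beside the points and mean ± SD as bars, n = 4 each. Plaque is lower on the raw scale (29.4 against 27.2 cycles) and slightly higher once centred (-1.36 against -1.91), with overlapping groups on both.

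Other miRNAs were called in the same fit, where 34.3% of the 172 miRNAs detected in at least 3 samples of each group were called at an adjusted p of 0.05, 15.7% higher and 18.6% lower in plaque. Of the 109 tested on the first assay panel, which holds miR-10a, 33.9% were called. In 32.6% of the 172 the groups did not overlap. The difference of miR-10a was smaller in size than that of 133 of the 172 miRNAs. The median log2 difference was -0.11 over all tested miRNAs and -0.73 over the 109 on the first panel, and 23 of those 109 had a higher value than miR-10a.

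The sign for miR-10a depended on the reference. It was -2.15 on raw Ct (adjusted p = 0.112) and -0.47 after quantile normalization (adjusted p = 0.647), but 1.09 with each panel centred on its own miRNAs (adjusted p = 0.0739) and 1.21 with mean raw Ct as a covariate (adjusted p = 0.216). The control RNAs and U6 gave values close to 0, 0.06 and 0.10, with wide intervals. Across 25 alternatives miR-10a was called in 0, by limma or by the permutation test, and the unadjusted limma p was under 0.05 in 1 of them, panel centring (p = 0.0202). The adjusted permutation test called 0 of the 172 tested miRNAs, so its result says nothing particular to miR-10a.

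**Figure D3:**
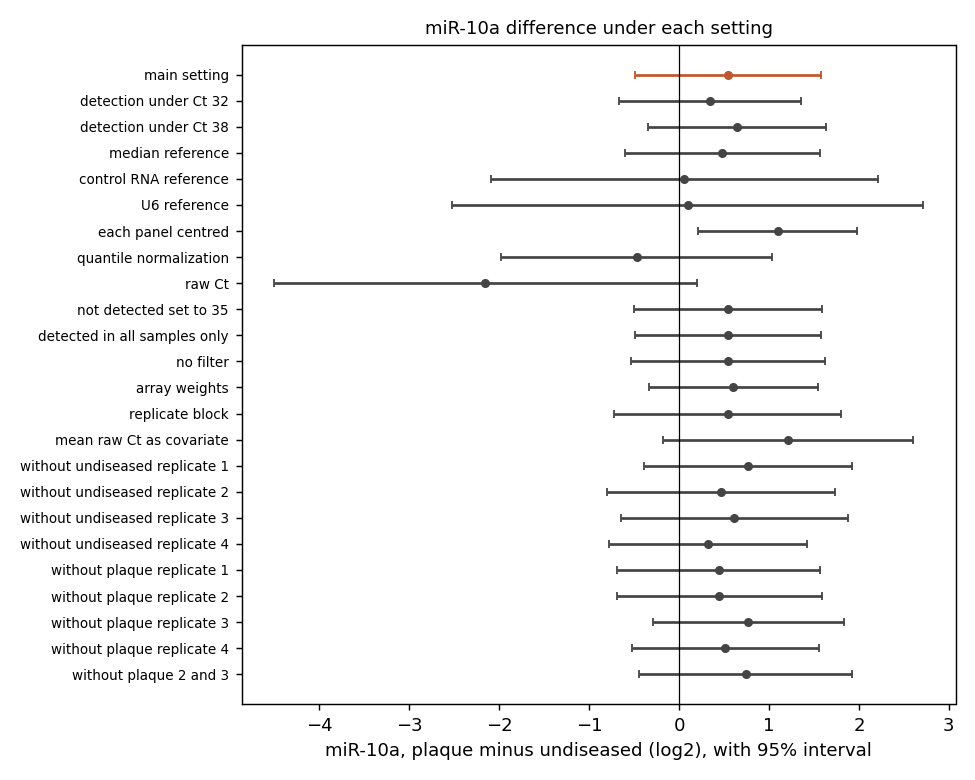
Log2 difference of miR-10a, plaque minus undiseased, with its 95% interval under the main setting and under each alternative that gives an interval. All points but those of raw Ct (-2.15) and quantile normalization (-0.47) lie above 0, and the interval excludes 0 with panel centring alone (0.21 to 1.98, not adjusted for the number of miRNAs).

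miR-10b, the paralogue from the Hoxd cluster, was detected in undiseased artery 1 at a Ct of 33.0 and read 40 in the other 7 samples. In those 7 samples miR-10a gave Ct values of 26.4 to 31.97, so the miR-10b assay gave no signal at these amounts of a miRNA that differs from its target by 1 base. Undiseased artery 1 had the earliest miR-10a of all samples (Ct 26.3). Whether miR-10a contributed to its miR-10b signal was not tested. miR-196b, from the Hoxa cluster, was detected in undiseased artery 3 at a Ct of 32.045 and nowhere else. For both, 1 of 4 undiseased against 0 of 4 plaque samples was no detectable difference (Fisher's exact test, two-sided, p = 1). Of all assays, 11.8% were detected in undiseased samples and in no plaque sample, and 3.29% in plaque samples and in no undiseased one.

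Non-detection in plaque was only partly informative, since later amplification raises the lowest level that can be seen. A Ct of 35 corresponded, from sample 1 to 4, to centred levels of -9.98, -10.0, -10.3 and -8.35 among the undiseased. The corresponding levels among the plaque samples were -7.87, -6.16, -5.07 and -8.74. miR-10b had a level of -8.00 in undiseased artery 1. That level lay above the limit in all 3 other undiseased samples, which did not detect it, but above the limit of plaque 4 alone among the plaque samples. miR-196b had a level of -7.36 in undiseased artery 3, above the limit in the 3 other undiseased samples and in plaque 1 and 4. In plaque 2 and 3 neither miRNA could have been seen at these levels. No fold change was computed for either.

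**Figure D4:**
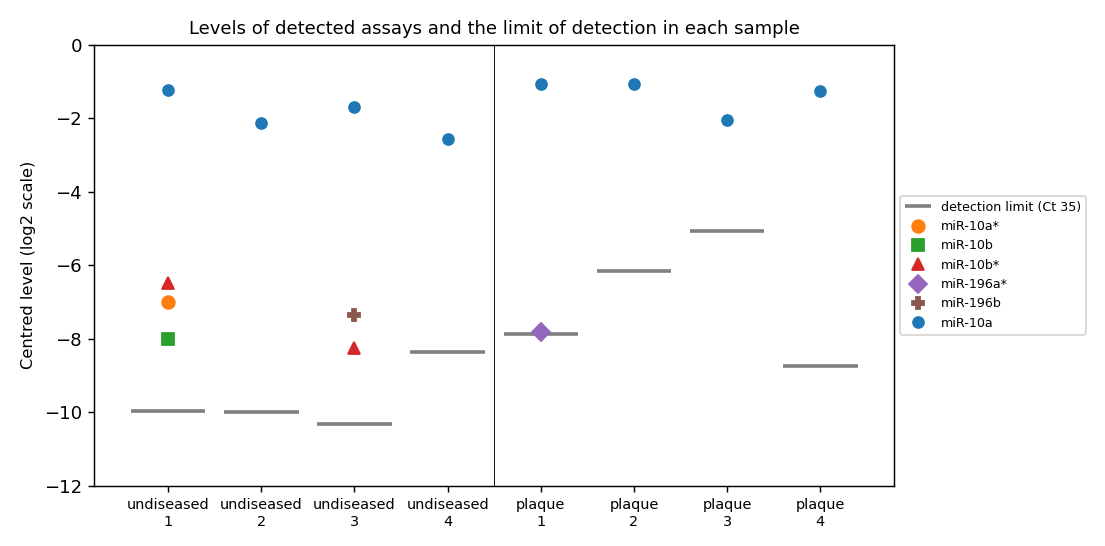
Centred level (log2 scale) of miR-10a and of each Hox cluster assay or starred strand where detected, with the level that a Ct of 35 represents in each sample as a grey line. The lines rise from about -10 in undiseased artery 1 to 3 to -5.07 in plaque 3, so faint assays such as miR-10b at -8.00 fall under the limit of 3 plaque samples.

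miR-615, which lies within the Hoxc5 gene, gave a Ct of 40 on both strands in all 8 samples. This says that it was not detectable at these amounts of RNA, the lowest limit being a centred level of -10.3 in undiseased artery 3. The panels also held starred assays for the other strand of the miR-10a, miR-10b and miR-196a hairpins, all 3 on the second panel. miR-10a* was detected in undiseased artery 1 (Ct 32.02) alone. miR-10b* was detected in undiseased artery 1 (Ct 31.5) and 3 (Ct 32.9) and in 0 plaque samples (Fisher's exact test, two-sided, p = 0.429). miR-196a*, the only sign of miR-196a here, was detected in plaque 1 at a Ct of 34.9, just under the cutoff.

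Most of these rare detections were in undiseased artery 1 and 3. Undiseased artery 1 held 1 of the 2 single detections among the unstarred assays and 2 of the 4 among the starred ones. It also detected the most miRNAs (288) and held 22 of the 50 miRNAs that were detected in 1 sample only. Undiseased artery 3, with 274 miRNAs, held 10 of those 50. In undiseased artery 3 miR-10b* was detected while miR-10b read 40.

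The wider miR-10 family was compared next, as a list made with earlier results of these data known. miR-99a, miR-99b and miR-100, which restrain mTOR and IGF1 receptor synthesis, and miR-125a and miR-125b descend from the same ancestral miRNA as miR-10 but lie outside the Hox clusters. Their sequences are shown because they share stretches with miR-10a but not its seed (capitals).
miR-10a: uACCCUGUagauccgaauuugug
miR-100: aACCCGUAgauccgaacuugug
miR-99a: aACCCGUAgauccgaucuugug
miR-99b: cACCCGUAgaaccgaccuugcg
miR-125a-5p: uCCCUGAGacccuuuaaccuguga
miR-125b-5p: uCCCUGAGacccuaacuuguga
The longest run of bases shared with miR-10a was 11 for miR-100 and 10 for miR-99a, runs that begin near the end of the seed and go on past it. It was 5 for miR-99b, miR-125a-5p and miR-125b-5p.

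Most of these relatives fell in plaque. Of the 5, all detected in all 8 samples and all on the first panel, 4 fell, 0 rose and miR-125a-5p (log2 difference -0.78, adjusted p = 0.434) did not pass, with a median of -1.63. Over all tested miRNAs 18.6% were called lower, with a median of -0.11. On the first panel 33.9% were called in either direction, with a median of -0.73. The share called lower on that panel alone was not counted. The 5 relatives are not independent in position. miR-99b (chr17:17830194-17830215) and miR-125a-5p (chr17:17830817-17830840) are neighbours. So are miR-100 (chr9:41531437-41531458) and Mir125b-1 (mature strand from chr9:41581940). miR-99a (chr16:77598940-77598961) likewise has Mir125b-2 nearby (mature strand from chr16:77646279). Whether neighbours share a transcript was not tested. The smooth muscle miRNAs miR-143 (-4.95) and miR-145 (-5.30) fell in the same samples, and their part in this was not tested. The fallers were miR-99a (-2.12, adjusted p = 0.0101), miR-100 (-1.94, adjusted p = 0.0200), miR-125b-5p (-1.63, adjusted p = 0.0327) and miR-99b (-1.54, adjusted p = 0.0463). With panel centring, and without undiseased artery 1, 2 or 3, miR-99a alone was called. With the control RNAs, U6, mean raw Ct as a covariate or a 2-fold minimum 0 of 5 were called. The adjusted permutation test also called 0 of 5, but it called 0 of all 172 tested miRNAs. Without plaque 3 miR-99a and miR-100 were called. miR-99b was also lost without plaque 1 or 4 and without plaque 2 and 3 together. It was lost too at a detection cutoff of 38, with values not detected set to 35 and with no filter. miR-125a-5p fell without plaque 4, on raw Ct and with array weights. All 5 log2 differences stayed below 0 under each reference. miR-125a-5p was 0.94 with mean raw Ct as a covariate (adjusted p = 0.545) and 0.01 without plaque 2 and 3 together (adjusted p = 0.988).

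Whether miR-10a and its relatives differed in their response was examined by subtracting the Ct of miR-10a from that of the other miRNA in the same sample. This comparison was chosen after the values above were seen. Each change is the log2 difference of miR-10a minus that of the relative, both given above. It is therefore not separate evidence that either miRNA changed. The result does not depend on any reference, but it takes both assays to amplify with equal efficiency, which was not tested. For miR-100 and undiseased artery, this difference was -4.24, -5.17, -4.59 and -5.01 cycles from sample 1 to 4. For plaque it was -2.19, -3.10, -2.02 and -1.76 cycles. All plaque samples lay above all undiseased ones, which means more miR-10a per miR-100 in plaque. The change was 2.49 cycles, or 5.60-fold at full efficiency (SE 0.568, limma adjusted p = 0.0119 over 171 miRNAs each set against miR-10a). The unadjusted exact permutation test gave p = 0.0286, the smallest that 70 arrangements allow.

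The same held for 3 other relatives. Against miR-99a the difference was -6.26 to -4.83 cycles in undiseased artery and -3.43 to -2.63 in plaque, a change of 2.66 cycles (SE 0.563, limma adjusted p = 0.00780). Against miR-125b-5p it changed by 2.17 cycles (SE 0.592, limma adjusted p = 0.0180) and against miR-99b by 2.08 (SE 0.576, limma adjusted p = 0.0190), again with no overlap between the groups. Against miR-125a-5p it changed by 1.32 cycles (95% interval -0.31 to 2.96, limma adjusted p = 0.193), with plaque 4 at -4.86 and plaque 1 to 3 at -1.96 to -1.28. Without plaque 4 that change was 2.12 and passed (limma adjusted p = 0.0200).

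The relatives were not alone in lying lower in plaque relative to miR-10a. Of the 171 miRNAs set against miR-10a, 24.0% were called lower and 5.85% higher in plaque relative to it, with a median of -0.70. Among the 123 other miRNAs detected in all samples, 27.6% lay lower and 3.25% higher with no overlap. The call against miR-99a held in all 8 fits that left out 1 sample. That against miR-100 was lost without undiseased artery 2 (2.35 cycles, limma adjusted p = 0.0586), and those against miR-99b and miR-125b-5p without undiseased artery 2 or 3 (1.83 to 2.18 cycles).

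**Figure D5:**
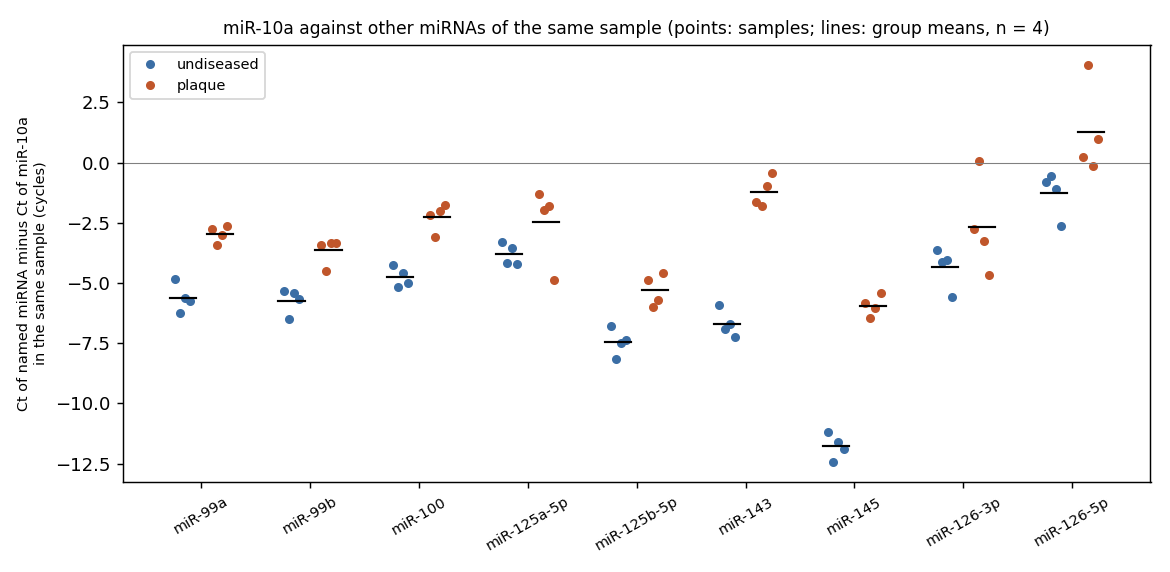
Ct of 9 miRNAs minus the Ct of miR-10a in the same sample, in cycles, with 4 undiseased and 4 plaque samples as points and group means as lines. A higher point means more miR-10a relative to the named miRNA. The groups do not overlap for miR-99a, miR-99b, miR-100, miR-125b-5p, miR-143, miR-145 and miR-126-5p, and overlap for miR-125a-5p and miR-126-3p.

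miR-10a was also set against markers of vascular cells in the same way, again with their values in view. The smooth muscle miRNAs miR-143 and miR-145, which accompany the contractile state, were detected in every sample. Both fell in plaque (log2 differences -4.95 and -5.30, adjusted p = 9.03e-05 and 3.51e-05), while miR-10a, at 0.54, was not called. The Ct of miR-143 minus that of miR-10a was accordingly 5.49 cycles higher in plaque (limma adjusted p = 2.70e-05) and that of miR-145 5.85 cycles higher (limma adjusted p = 1.49e-05), with no overlap. Both calls held in all 8 fits that left out 1 sample. Against the endothelial miR-126-3p the change was 1.69 cycles (95% interval -0.22 to 3.59, limma adjusted p = 0.157). It ran from 0.79 to 2.36 with 1 sample left out, the lowest without plaque 2 and the highest, which passed, without plaque 4. Against miR-126-5p, the other strand of that hairpin, it was 2.56 cycles (95% interval 0.67 to 4.45, limma adjusted p = 0.0425), a call that was kept only without plaque 3 or without plaque 4. Plaque 2 stood apart for both strands, with miR-126-5p 4.08 cycles later than miR-10a and -0.13 to 0.97 in the other plaque samples.

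Markers of other cells were read from the same fit, in which 34.3% of the 172 tested miRNAs were called. Of 5 leukocyte markers 4 were tested, of which miR-155 rose in plaque (log2 difference 2.79, adjusted p = 0.0117). miR-142-3p (-0.22, SE 1.03, adjusted p = 0.878), miR-150 (-0.85, SE 0.77, adjusted p = 0.425) and miR-223 (0.50, SE 3.80, adjusted p = 0.903) did not pass. The SD of miR-223 was 6.32 in undiseased artery and 8.06 in plaque, too wide for its test to decide whether it changed. miR-142-5p was seen in all 4 undiseased samples and in plaque in 1 of 4. Of 6 striated muscle markers 4 were tested, of which miR-206 fell (-2.05, adjusted p = 0.0331). miR-1 (0.61, SE 0.74, adjusted p = 0.523), miR-133a (-0.26, SE 1.37, adjusted p = 0.879) and miR-133b (1.10, SE 0.47, adjusted p = 0.0947) did not pass. The groups did not overlap for miR-133b, as for 32.6% of the tested miRNAs. For miR-133a the SD was 0.46 in undiseased artery and 3.57 in plaque, so its test could not exclude a large change in either direction. The heart miRNA miR-208 was detected in 2 of 4 plaque and 0 of 4 undiseased samples, and miR-499 in 0 of 8. The erythroid miR-451 (-1.56, adjusted p = 0.0878) did not pass, though its groups did not overlap. The neuronal miR-9 was detected in 4 undiseased and 1 plaque samples, and miR-124 in 3 and 0. Neither of these nor any of the 4 epithelial markers was detected often enough to be tested. The part of these cells in the values of miR-10a was not tested.

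miRNAs reported to repress Hox genes from outside the clusters, by roles known mostly from human or mouse cells other than artery, fell in most tested members. Of 16 listed (miR-126-3p, miR-130a, the miR-135 and miR-181 families and let-7), 14 were on the panels and 9 were tested. This list too was made with earlier results known. Of these 9, 7 fell, 0 rose and miR-126-3p and let-7i did not pass, with a median log2 difference of -1.65. The share called lower among all tested miRNAs was 18.6%, with a median of -0.11. The first panel holds all 9, and there 33.9% were called in either direction, with a median of -0.73. Its share called lower alone was not counted. let-7e (chr17:17830366-17830387) lies between miR-99b and miR-125a-5p, so this list and that of the relatives are not independent. The fallers included let-7e (-2.53, adjusted p = 0.0223), let-7g (-2.19, adjusted p = 0.0327) and miR-130a (-1.63, adjusted p = 0.0270), which represses HOXA5 in human endothelium. Without undiseased artery 1, 2 or 3, as with the control RNAs, U6, mean raw Ct as a covariate or a 2-fold minimum, 0 of 9 were called. The adjusted permutation test gave 0 of 9 as well, but it called 0 of all 172 tested miRNAs. Without plaque 2 and 3 together 3 were called, without plaque 3 there were 2 (let-7e and miR-130a), and with panel centring let-7e alone. The seeds of let-7e and miR-196b overlap in the 6 bases AGGUAG, shifted by 1 position.
let-7e: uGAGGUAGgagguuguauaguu
miR-196b: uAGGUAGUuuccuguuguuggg

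The miRNAs whose centred levels ran most like those of miR-10a were found by Pearson's r over the 8 samples, among the 123 others detected in all of them. These were miR-222 (r = 0.707), a miRNA of proliferating vascular cells, miR-296-5p (r = 0.686) and miR-146b (r = 0.631), with log2 differences between the groups of 1.17, 3.98 and 3.60 (adjusted p = 0.235, 0.0153 and 0.00382). With group means removed, the closest were miR-127 (r = 0.910), from the imprinted Dlk1-Dio3 cluster, let-7e (r = 0.765) and let-7c (r = 0.707), with log2 differences between the groups of -1.49, -2.53 and -1.75 (adjusted p = 0.0474, 0.0223 and 0.0360). None of these 3 was called without undiseased artery 1, 2 or 3, nor miR-127 without plaque 2 or 3 or let-7c without plaque 3, and with the control RNAs or U6 none of the 5 called miRNAs of this paragraph was. With mean raw Ct as a covariate or a 2-fold minimum, miR-146b alone was called. Panel centring lost miR-127 and let-7c, and raw Ct lost miR-296-5p and miR-146b. Without plaque 2 and 3 together miR-296-5p, miR-127 and let-7e were lost. miR-127 was also lost with the median as reference, a detection cutoff of 38 or no filter. It was lost too with values not detected set to 35, array weights or a replicate block. The samples share depth and reference across miRNAs, and the r values are descriptions only.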

How the data were processed

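The authors deposited raw threshold cycles (Ct) from real-time PCR with FAM-labelled probes, per the labels, on total RNA isolated with the RecoverAll kit, and a value of exactly 40 stands for no amplification. For instrument, reverse transcription, preamplification and threshold, the sources used here give nothing. The table's 530 rows hold 335 and 182 miRNA assays on the first and second panel, and control RNAs. A Ct of 35 or above was set to missing. No miRNA assay was repeated. Levels were centred on the mean of the 124 miRNAs detected in all samples. The 172 miRNAs with 3 or more detections per group entered limma (version 3.58.1, under R 4.3.3; functions lmFit and eBayes, group as sole term, two-sided), with Benjamini-Hochberg adjustment over all of them. Comparisons within a sample used the same fit with miR-10a as the reference and were chosen with values in view. The scripts were tested on simulated data.

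The members and lists were chosen with earlier results of these data known. Named were all members, their starred strands, the 2 lists, markers, and the 3 closest miRNAs by each correlation. Sequences and positions are from RefSeq (GRCm38.p6), while the deposited table names no build. The title, not the description, numbered plaque 4.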

Additional observations from a re-analysis of the deposited data

Results flagged for a closer look

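Of 26 groups of 4 samples examined, 2 had a sample far from the other 3, where chance gives about 1 in 20. Undiseased artery 4 had a mean raw Ct of 26.6 over the 124 miRNAs detected in all samples, against 24.7 to 25.02 in the other undiseased samples, a gap of 0.830 of the group's range, barely past the critical value. Without it the log2 difference of miR-10a was 0.33, not called. Plaque 2 stood apart in the difference between miR-99b and miR-10a, at -4.50 cycles against -3.40 to -3.34 in the other plaque samples, a gap of 0.946 of the range.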

How the results depend on the processing

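The log2 difference of miR-10a (0.54) stayed above 0 and not called except on raw Ct (-2.15) and after quantile normalization (-0.47), where its sign turned and it was not called. The raw value holds the later average amplification of the plaque samples, 2.70 cycles, which centring subtracts. The cause of the turn after quantile normalization was not tested. With 1 sample left out it was 0.33 to 0.77. The replicate block left it at 0.54 (adjusted p = 0.499). Whether the replicate numbers pair the samples could not be told. The correlations of same-numbered deviations were 0.13, 0.19, -0.24 and -0.16. The plaque sample most like undiseased artery 1 and 2 carried the same number, while for 3 and 4 it did not. With the block 27 miRNAs were called higher and 22 lower, with 3 of the 5 relatives of miR-10 (not miR-99b) and 5 of the 9 Hox-repressing miRNAs (not let-7d or miR-181a). The counts of called miRNAs over the whole table, 27 higher and 32 lower, became 0 and 2 with the control RNAs, 0 and 2 with U6, 15 and 20 with panel centring, 11 and 37 after quantile normalization, 0 and 81 on raw Ct, 0 and 0 with the exact permutation test, 5 and 3 with a 2-fold minimum, 7 and 6 with mean raw Ct as a covariate, and 15 and 21 without plaque 2 and 3, a setting chosen after seeing the data in which miR-10a stood at 0.74. With 1 sample left out they ran from 12 to 36 higher and from 7 to 43 lower, with 14 and 10 without undiseased artery 1, 12 and 7 without undiseased artery 2, 13 and 7 without undiseased artery 3, and 20 lower without plaque 3. At a detection cutoff of 32 miR-10a kept all 8 detections, miR-10b* kept 1 of 2, and miR-10b, miR-196b, miR-10a* and miR-196a* had 0. A cutoff of 38 changed none of these counts. Repeated wells could not be varied, as none of these assays was repeated. Differences between pairs of Hox cluster miRNAs could not be compared, as miR-10a alone was detected in all samples.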
